A study of Homo sapiens with 6 samples.

Results

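Classical cadherins are calcium-dependent adhesion receptors that span the plasma membrane, bind cadherins on the neighbouring cell through their extracellular repeats, and hold the actin cytoskeleton through β-catenin and α-catenin, while p120-catenin keeps them at the cell surface. In breast epithelium E-cadherin (CDH1) builds the adherens junction, and its loss with a gain of N-cadherin (CDH2) is the textbook cadherin switch of invasive carcinoma cells. The genes described here are CDH1, CDH2, CDH3 (P-cadherin), CDH4 (R-cadherin), CDH5 (VE-cadherin), CDH6 (K-cadherin), CDH11 (OB-cadherin), CDH13 (T-cadherin) and CDH24. They were taken by gene name from the deposited tables, and all 9 were found among 58735 genes. CDH1 to CDH4 are type I and CDH5, CDH6, CDH11 and CDH24 type II classical cadherins, whereas CDH13 has no cytoplasmic tail and is held by a lipid anchor, so that it is a classical cadherin by kinship and not by structure. The list was chosen by the measured change of CDH4 between SCH and vehicle, which earlier results of this comparison named among the largest falls, and the fit over all genes gives no independent evidence on its members, whose changes are therefore given as a description without p-values.

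RNA was sequenced from MDA-MB-231 cells, a human triple-negative breast cancer (TNBC) line, with 3 samples kept in vehicle and 3 treated with SCH (salvia chinensia benth, a medicinal plant) at 100 mg/l, each for 24 h. All cells were wild type and grown with fetal bovine serum and penicillin/streptomycin, in RPMI-1640 by the sample labels but in DMEM by the study's methods for this line. The vehicle is not named, and 1 cell line and 1 dose were studied. The samples of a group are called biological repeats, but no source used here says whether they came from separate cultures, so that errors measure the spread between these samples only. The vehicle samples held 20291379, 18714240 and 18334857 counts and the SCH samples 16836369, 17979434 and 18414924. A floor of 3 counts corresponds to 0.154 to 0.172 CPM, the count scaled to a common library size.

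The line label was compared with marker genes. VIM (vimentin, a mesenchymal intermediate filament) had 24800 to 27143 counts in the vehicle samples and 16355 to 18200 in the SCH samples. ESR1, the oestrogen receptor, had 4 counts in each vehicle sample and 1 to 3 in the SCH samples, and PGR, the progesterone receptor, had 1 count in 1 SCH sample. VIM was thus abundant and both receptors near the floor in both groups, whereas SPARC, another mesenchymal marker, had 1 or 2 counts in each sample. The summed FPKM of the 7 epithelial and luminal markers, of which KRT19 was the most abundant, was 87.7, 86.3 and 76.4 in the vehicle samples and 94.4, 89.3 and 85.9 in the SCH samples. Its members moved apart, with EPCAM, a surface adhesion molecule, lower (log2 fold change -0.52, adjusted p = 9.22e-05 by edgeR) and GATA3, a luminal transcription factor, lower (-0.79, adjusted p = 4.36e-06), while KRT19, a keratin, and CLDN4, a claudin, were higher (0.17, adjusted p = 0.0234, and 0.25, adjusted p = 0.00106). The 4 mesenchymal markers summed to 287, 295 and 287 and to 203, 208 and 202 FPKM in the same order, with VIM the most abundant (log2 fold change -0.56, adjusted p = 2.02e-10 by edgeR's quasi-likelihood test). The 4 leukocyte markers, with CD14 the most abundant, summed to 0.664, 0.925 and 0.468 FPKM in the vehicle samples and 0.595, 0.666 and 0.608 in the SCH samples. Among them PTPRC (CD45) fell from 39, 37 and 34 to 4, 9 and 3 counts (log2 fold change -2.75, adjusted p = 8.80e-07). The 5 fibroblast markers summed to 0.566, 0.462 and 0.470 and to 0.837, 0.860 and 0.762 FPKM, groups that did not overlap, with DCN at 0 counts in all samples and COL1A1, a collagen chain and the most abundant, higher by 0.76 on the log2 scale (adjusted p = 4.26e-05). The part of these markers in the cadherin values was not tested. In bulk RNA a loss of cells that carry a transcript and a loss of that transcript per cell cannot be told apart.

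Long identical stretches between CDH4 and the other members were looked for, since reads could be given to the wrong gene there. CDH4 and CDH2 are the closest relatives of the set, and the longest stretch that their coding sequences share without a mismatch is 17 bases. The stretch around it, read from the GENCODE 29 coding sequences on GRCh38, is shown because it holds the longest identical run of this pair, although bases around the run also match. The 17 shared bases are in capitals, within coding bases 2361 to 2440 of 2748 in CDH4 (chr20:61933106-61933124 and chr20:61934056-61934116, plus strand, coding exons) and 2331 to 2410 of 2718 in CDH2 (chr18:27963461-27963521 and chr18:27982944-27982962, minus strand, coding exons).
CDH4: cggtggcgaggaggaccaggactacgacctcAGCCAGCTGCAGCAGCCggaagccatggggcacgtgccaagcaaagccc
CDH2: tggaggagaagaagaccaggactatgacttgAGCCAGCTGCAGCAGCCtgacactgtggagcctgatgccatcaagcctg
With the remaining members CDH4 shared runs of 12 to 19 bases at most, the longest with CDH13. Of the 6464 words of 50 bases in the CDH4 transcript CDH4-203, 0 occurred in a transcript of another gene, and the same held for 0 of 3503 words of CDH24. In CDH11, 210 of 6808 words (3.08%) were shared with the overlapping gene AC010533.1, and in CDH2 90 of 4283 (2.10%) with AC110015.1. The library protocol names no step that marks the strand, and no source used here says that counting used it, so reads from these overlaps cannot be told apart by strand.

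CDH4 RNA was the most abundant of the set in vehicle and was low after SCH. R-cadherin is best known from the developing retina, brain and kidney, where it binds itself and N-cadherin. CDH4 (ENSG00000179242) lies on chr20:61252426-61940617, plus strand. It had 4680, 4531 and 4218 counts in the vehicle samples and 247, 235 and 206 in the SCH samples. Per length this was 31.6, 33.2 and 31.2 FPKM, the count divided by gene length and library size, in vehicle and 1.88, 1.67 and 1.43 FPKM after SCH. Every SCH sample thus lay far under every vehicle sample, and the spread within a group was small beside the gap. The mean fell from 32.0 ± 1.08 to 1.66 ± 0.226 FPKM (SD, n = 3 each), and the fitted log2 fold change was -4.28 (SE 0.073), a level 19.4-fold lower. Of the 10714 tested genes whose counts averaged 100 or more, 1 gene, SHANK2, had a lower value, and CDH4 stood at rank 757 of all tested genes by mean CPM in vehicle.

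**Figure D1:**
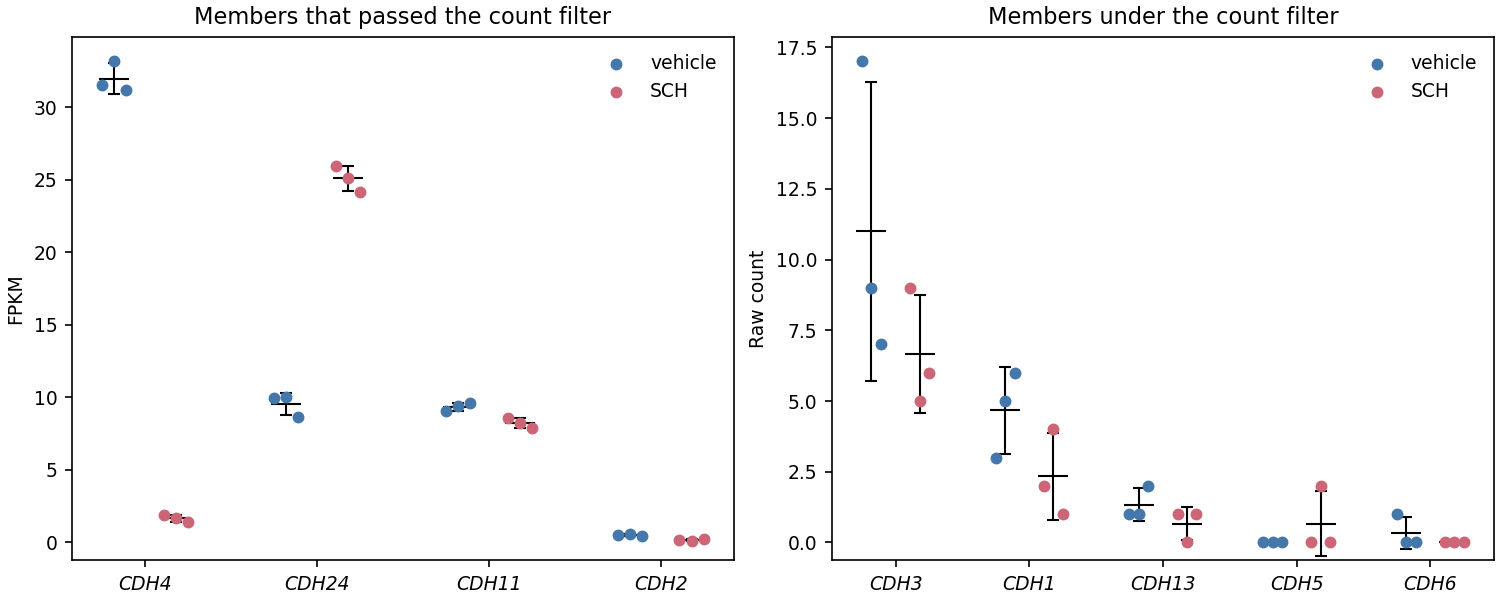
Levels of the 9 cadherins in each sample, as FPKM for the 4 members that passed the filter on low counts (left) and as raw counts for the 5 that did not (right). Points are samples, horizontal ticks means and bars the SD over 3 samples; CDH4 lies between 31.2 and 33.2 FPKM in vehicle and between 1.43 and 1.88 after SCH, and CDH24 between 8.66 and 10.0 and between 24.2 and 25.9.

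CDH24, a type II cadherin, went the other way. CDH24 (ENSG00000139880, chr14:23047062-23057538, minus strand) had 755, 697 and 598 counts in the vehicle samples and 1740, 1809 and 1781 in the SCH samples. Its level was 9.98, 10.0 and 8.66 FPKM in vehicle and 25.9, 25.2 and 24.2 FPKM after SCH, and every SCH sample lay above every vehicle sample. The mean rose from 9.55 ± 0.772 to 25.1 ± 0.884 FPKM (SD, n = 3), with a fitted log2 fold change of 1.38 (SE 0.064), a 2.61-fold higher level.

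CDH2, the N-cadherin of mesenchymal and neural cells, was present at a low level in this line and was lower after SCH. CDH2 (ENSG00000170558, chr18:27950966-28177446, minus strand) had 53, 52 and 42 counts in the vehicle samples and 14, 11 and 20 in the SCH samples. The 2 groups did not overlap. Its mean level fell from 0.519 ± 0.0535 to 0.160 ± 0.0449 FPKM (SD, n = 3), with a log2 fold change of -1.70 (SE 0.27), a 3.24-fold lower level that rests on 147 and 45 counts in all.

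CDH11, the cadherin of osteoblasts and other mesenchymal cells, moved least of the tested members. CDH11 (ENSG00000140937, chr16:64943753-65126112, minus strand) had 9.04, 9.39 and 9.596 FPKM in the vehicle samples and 8.56, 8.21 and 7.90 FPKM in the SCH samples. The highest SCH sample lay just under the lowest vehicle sample. The means were 9.34 ± 0.278 and 8.22 ± 0.330 FPKM (SD, n = 3), with a log2 fold change of -0.19 (SE 0.052). Scaled by library size alone, which moves the median of all tested genes up by 0.103, the value of CDH11 was -0.088 and no longer past the threshold.

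The other 5 members did not pass the filter on low counts and were not tested. CDH1, the epithelial cadherin, had 3, 5 and 6 counts in the vehicle samples and 2, 4 and 1 in the SCH samples. CDH3, a cadherin of basal epithelium, had 17, 9 and 7 and then 9, 5 and 6 counts. In both genes the groups overlapped, and a difference was not detectable at this depth. CDH13 had 1, 1 and 2 and then 1, 0 and 1 counts, CDH6 had 1 count in 1 vehicle sample, and CDH5, the endothelial cadherin, had 2 counts in 1 SCH sample. All of these lay at or under the floor in each sample, and no fold was computed. Of the 5 endothelial markers TEK and CLDN5 were at 0 to 3 counts in every sample and VWF at 0 to 7, while PECAM1 had 15 to 30 and KDR 121 to 155 counts. The list summed to 1.27, 1.495 and 1.41 FPKM in vehicle and 1.23, 1.13 and 1.30 FPKM after SCH, with KDR the most abundant.

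All 4 tested members passed the threshold of an adjusted p under 0.05 and had groups that did not overlap, 1 raised and 3 lowered. Over all 14736 tested genes 58.7% passed it and 62.4% had groups that did not overlap. As the members were chosen with this comparison known, nothing is read from their share. Among all tested genes 29.3% were raised and 29.4% lowered, and 49.9% of the changed genes were raised, against 62.6% with library size alone.

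CDH4 lost the first place among the members by level. In vehicle CDH4 stood first, CDH24 and CDH11 followed with values that overlapped, and CDH2 came next. CDH3 and CDH1 followed, without overlap in FPKM, and CDH13, CDH6 and CDH5, under the floor of 3 counts, were not ordered. After SCH the order was CDH24, CDH11, CDH4, CDH2 and CDH3, with no overlap between neighbours and with CDH1 now near the floor and not ordered, so that CDH4 went from rank 1 to rank 3 and CDH24 and CDH11 no longer overlapped. The 9 genes together gave 51.3, 53.3 and 49.996 FPKM in the vehicle samples and 36.6, 35.2 and 33.8 FPKM in the SCH samples, a ratio of the means of 0.683. CDH4 made up 62.0% ± 0.446 of that sum in vehicle and 4.69% ± 0.452 after SCH, and CDH24 18.5% ± 1.10 and 71.3% ± 0.408 (SD, n = 3). CDH11 held 18.1% ± 0.905 and 23.3% ± 0.0405, and CDH2 1.01% and 0.456%. The gain of CDH24 in FPKM was smaller than the loss of CDH4, so that the sum was lower in every SCH sample than in every vehicle sample. As CDH4 was chosen for its fall, the lower sum is a description only.

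**Figure D2:**
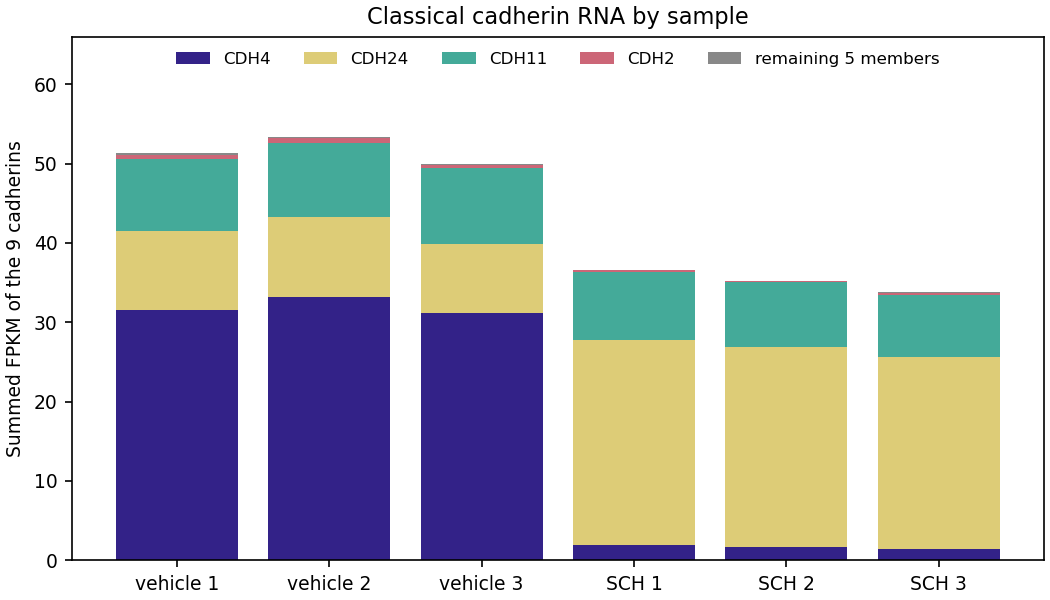
Summed FPKM of the 9 cadherins in each of the 6 samples, divided by gene. The bars lie between 49.996 and 53.3 in vehicle and between 33.8 and 36.6 after SCH, with CDH4 the largest share in vehicle and CDH24 the largest after SCH.

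The members differ widely in genomic span, the distance from the first to the last base of the gene. CDH4 spans 688.2 kb, of which 1.07% is exonic, and the second intron of its transcript CDH4-203 (16 exons) covers 488.6 kb, from 61254938 to 61743562 on chromosome 20, or 71.0% of the gene. CDH2 spans 226.5 kb and CDH11 182.4 kb, with longest introns of 133.8 and 67.95 kb. CDH24 spans 10.48 kb, of which 35.8% is exonic, and its longest intron is 2.026 kb. Among the untested members the span ranged from 38.16 kb in CDH5 to 1174 kb in CDH13. CDH1, CDH3, CDH5, CDH11 and CDH13 all lie on chromosome 16.

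The members were also set beside genes of like span. CDH4 was chosen for its fall in this comparison, so its place in its class is a description only. The 299 tested genes over 400 kb had a median log2 fold change of -0.90, with 26 raised and 224 lowered, and CDH4 differed from that median by -3.38, at rank 6 from the lowest. Of the 176 that averaged 100 counts or more, 1 lay lower than CDH4, and 3 of the 299 had a higher CPM in vehicle. CDH2 differed by -1.46 from the median of its class of 200 to 400 kb (-0.24 over 722 genes), at rank 33 from the lowest. CDH11 differed by -0.20 from the median of the 3974 genes of 50 to 200 kb (0.014). CDH24 lay 1.37 above the median of the 9741 genes under 50 kb (0.011), at rank 208 from the highest. In these 4 genes the order of the log2 fold changes thus followed the order of the spans, from CDH24 through CDH11 and CDH2 to CDH4. As the list was chosen by the fall of CDH4, nothing is read from this order.

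That order was looser in the wider cadherin superfamily. Of 59 such genes in the lists, 24 were tested, 9 raised and 10 lowered, the 4 tested members included. Among all tested genes 29.3% were raised and 29.4% lowered. Spearman's correlation between span and log2 fold change over these 24 genes was -0.41, or -0.36 without CDH4, against -0.071 over all tested genes. These are correlations across genes that share their libraries, with members chosen on this comparison among them, given as a description. Of the 7 tested superfamily genes over 200 kb, 4 were lowered and 2 raised. Of all 1021 tested genes of that span 55.9% were lowered and 14.6% raised. The lowered genes include CDH4 and CDH2, members chosen with this comparison known, and CDH12, whose call was lost by DESeq2. Nothing is therefore read from this share. PCDH9, a protocadherin of 927.6 kb, rose by 1.38 on the log2 scale (SE 0.12) and was the second highest of the 299 genes over 400 kb. PCDH7, at 426.4 kb, rose by 0.36 (SE 0.077). FAT3, at 544.4 kb, fell by 0.90 (SE 0.085), the median of its class.

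**Figure D3:**
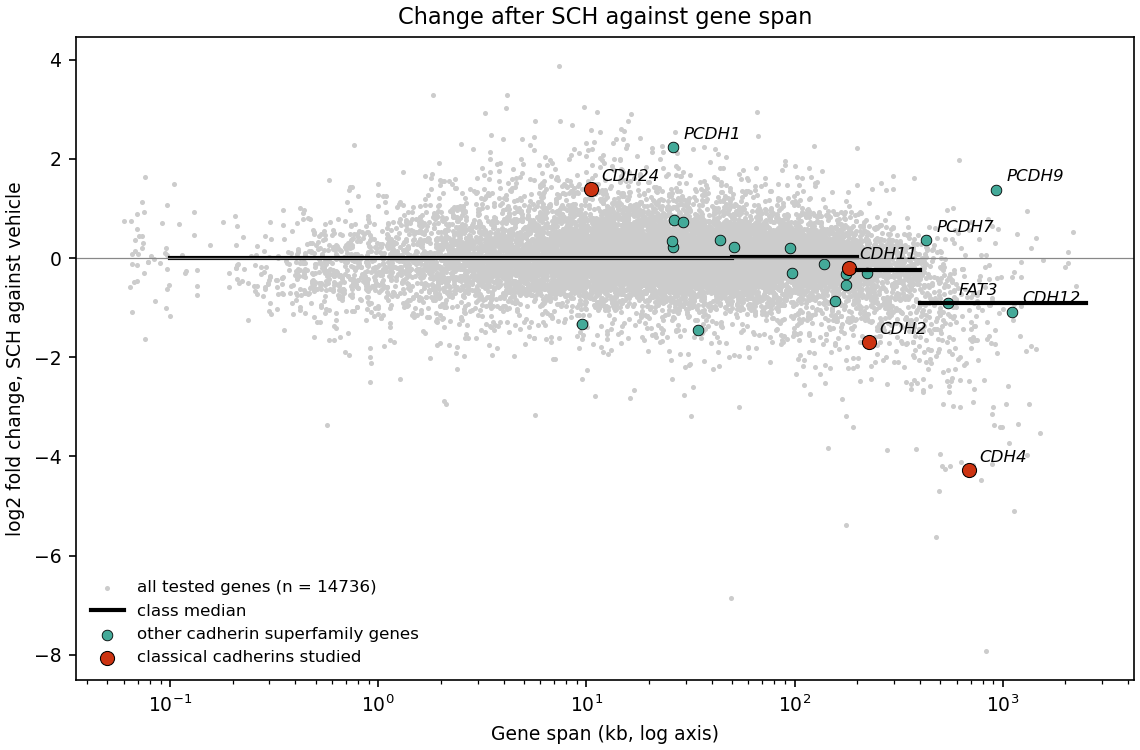
Log2 fold change of SCH against vehicle (vertical) against gene span in kb on a log axis (horizontal) for the 14736 tested genes, with the classical cadherins in red, other cadherin superfamily genes in green and black lines at the median of each span class. CDH4 lies far under the class median of -0.90, while PCDH9 and PCDH7 lie above it.

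The changes beside CDH4 on the chromosome were small against its own. Of 13 tested genes within 500 kb of CDH4, 2 were raised and 4 lowered, and their log2 fold changes had a median of -0.10 and a lowest value of -0.97. All 13 lie beyond the 3′ end of the gene, and none near its start was tested. This window was chosen after the values were seen. TAF4, a subunit of the general transcription factor TFIID and the nearest of them at 12.85 kb, had a log2 fold change of 0.089 (adjusted p = 0.317). LAMA5, a laminin chain, had 0.14 (adjusted p = 0.0561), and OSBPL2, an oxysterol-binding protein, rose by 0.45. The 4 lowered genes were SS18L1 (-0.31), RPS21 (-0.27), AL121832.2 (-0.78) and AL121832.3 (-0.97), named here after their values were seen. Of 23 tested genes within 500 kb of CDH24, 6 were raised and 10 lowered, with a median of -0.035. The counts of both windows stand beside 29.3% raised and 29.4% lowered of all tested genes.

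The genes whose pattern over the 6 samples was most like that of CDH4 were sought among 10713 genes whose counts averaged 100 or more, by the Euclidean distance of log2 CPM centred on each gene's mean. They were SHANK2 (a postsynaptic scaffold), at a distance of 0.404, PARD3B (a polarity protein), at 0.893, SDK1 (an adhesion molecule of the immunoglobulin superfamily), at 1.24, GPC6 (a glypican), at 1.36, and NEGR1 (a lipid-anchored adhesion molecule), at 1.46. Their log2 fold changes ran from -4.48 to -3.15 and their spans from 784.7 to 1181 kb. As the distance was taken over the same 6 samples, fold changes near that of CDH4 follow from the choice. The values are thus a description. Their vehicle levels, between 11.1 and 39.6 CPM, were all under the 243 CPM of CDH4.

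Of the 10 other classical cadherins 2 passed the filter. CDH12, a brain cadherin of 1103 kb, had 22, 25 and 13 counts in the vehicle samples and 14, 4 and 10 in the SCH samples, groups that overlapped. Its log2 fold change was -1.08 (SE 0.41), the only one of the list past the threshold (adjusted p = 0.0266). That call was lost by DESeq2 and without vehicle sample 1 or 2 or SCH sample 2 or 3, with adjusted p between 0.0622 and 0.164. CDH20 had a log2 fold change of -0.29 (SE 0.33, adjusted p = 0.464), which turned to 0.037 without SCH sample 2. None of the list was raised by edgeR at an adjusted or an unadjusted p under 0.05, nor by DESeq2, although 1 gene was when the filter on low counts was left out.

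The catenins and the linker proteins of the junction, which tie cadherins to actin, were listed together. Of 15 genes 12 were tested, 4 raised and 5 lowered, and the median of their log2 fold changes was -0.010, against -0.0034 over all tested genes. JUP (plakoglobin), which can take the place of β-catenin and also serves desmosomes, had 6.73, 8.22 and 7.14 FPKM in the vehicle samples and 16.2, 16.3 and 14.9 FPKM in the SCH samples, with no overlap, and rose by 1.10 on the log2 scale (SE 0.070, adjusted p = 4.45e-12). ARVCF, of the p120-catenin family, was low at 0.362, 0.489 and 0.386 FPKM and went to 1.97, 1.48 and 1.68 FPKM, a rise of 2.05 (SE 0.16, adjusted p = 2.01e-10). CTNND1, p120-catenin itself, rose by 0.20 (SE 0.050, adjusted p = 0.00129), with every SCH sample above every vehicle sample. PKP4, another p120 relative, fell by 0.44 (SE 0.051), and AJUBA, a LIM protein recruited to α-catenin, fell by 0.45 (SE 0.046, adjusted p = 1.18e-08).

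The core pair moved little. CTNNB1 (β-catenin) stood at 34.6, 35.5 and 35.8 FPKM in vehicle and 35.3, 36.1 and 34.8 FPKM after SCH, with a log2 fold change of -0.0016 (SE 0.045, adjusted p = 0.979) whose sign turned with the scaling, to 0.10 with library size alone. CTNNA1 (α-catenin), at 80.6 ± 1.21 FPKM in vehicle and 75.4 ± 0.283 after SCH (SD, n = 3), had a log2 fold change of -0.10 (SE 0.044) that just passed the threshold (adjusted p = 0.0489). It missed it when any 1 sample was left out (adjusted p from 0.0652 to 0.158), and was 0.00061 with library size alone. The levels of CTNNB1 overlapped between the groups. The summed level of the 9 cadherins was lower in every SCH sample than in every vehicle sample. CDH4, chosen for its fall, made up 62.0% of that sum in vehicle, so nothing is read from this contrast with CTNNB1.

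Of the nectins, immunoglobulin-like receptors of the same junctions, 3 of 4 were tested. NECTIN1 rose by 0.45 (SE 0.077, adjusted p = 2.47e-05) and NECTIN3 fell by 0.30 (SE 0.086, adjusted p = 0.00505, or 0.0620 with library size alone). NECTIN2 had a log2 fold change of -0.087 (SE 0.051, adjusted p = 0.147), which passed the threshold without vehicle sample 3 (adjusted p = 0.0313) and was 0.016 with library size alone. In the desmosome list 5 of 11 genes were tested, 2 raised and 1 lowered, with a median of 0.22. The 60.0% that passed the threshold was near the 58.7% of all tested genes (29.3% raised and 29.4% lowered). DSP (desmoplakin, which binds keratin) rose by 0.38 (SE 0.057) and DSG2, a desmosomal cadherin, by 0.22 (SE 0.053). PKP3, a desmosomal plaque protein, fell by 1.05 (SE 0.084, adjusted p = 2.10e-10), from 7.20 ± 0.340 to 3.50 ± 0.183 FPKM (SD, n = 3). DSC2, another desmosomal cadherin, had 0.36 (SE 0.16, adjusted p = 0.0559), which passed the threshold without vehicle sample 3 (adjusted p = 0.0266) and with library size alone (0.46, adjusted p = 0.0156), giving 3 raised genes of the list.

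Among the non-clustered protocadherins, which lack catenin binding, 5 of 11 genes were tested, with a median of 0.36. By edgeR 3 were raised and 0 lowered, also by DESeq2 and at an unadjusted p under 0.05 in edgeR. Their share past the threshold, 60.0%, was near the 58.7% of all tested genes, of which 29.3% were raised and 29.4% lowered. PCDH1, a protocadherin of airway epithelium, had 0.227, 0.338 and 0.294 FPKM in the vehicle samples and 1.48, 1.18 and 1.40 FPKM in the SCH samples, a rise of 2.24 on the log2 scale (SE 0.18, adjusted p = 2.07e-10). PCDH9 went from 0.148 ± 0.00730 to 0.387 ± 0.0197 FPKM (SD, n = 3, adjusted p = 1.12e-09), and PCDH17 had a log2 fold change of -0.31 (SE 0.38, adjusted p = 0.508), and of -0.57 without SCH sample 3 and -0.058 without SCH sample 1. Of the large and atypical cadherins 11 of 22 were tested, 4 raised and 6 lowered, with a median of -0.32. This is 90.9% past the threshold, beside 58.7% of all tested genes (29.3% raised and 29.4% lowered), a difference that was not tested. The planar polarity cadherins CELSR1 and CELSR3 moved apart, with a fall of 0.55 (SE 0.074) and a rise of 0.77 (SE 0.076). CLSTN3, a calsyntenin of synapses, rose by 0.72 (SE 0.073).

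**Figure D4:**
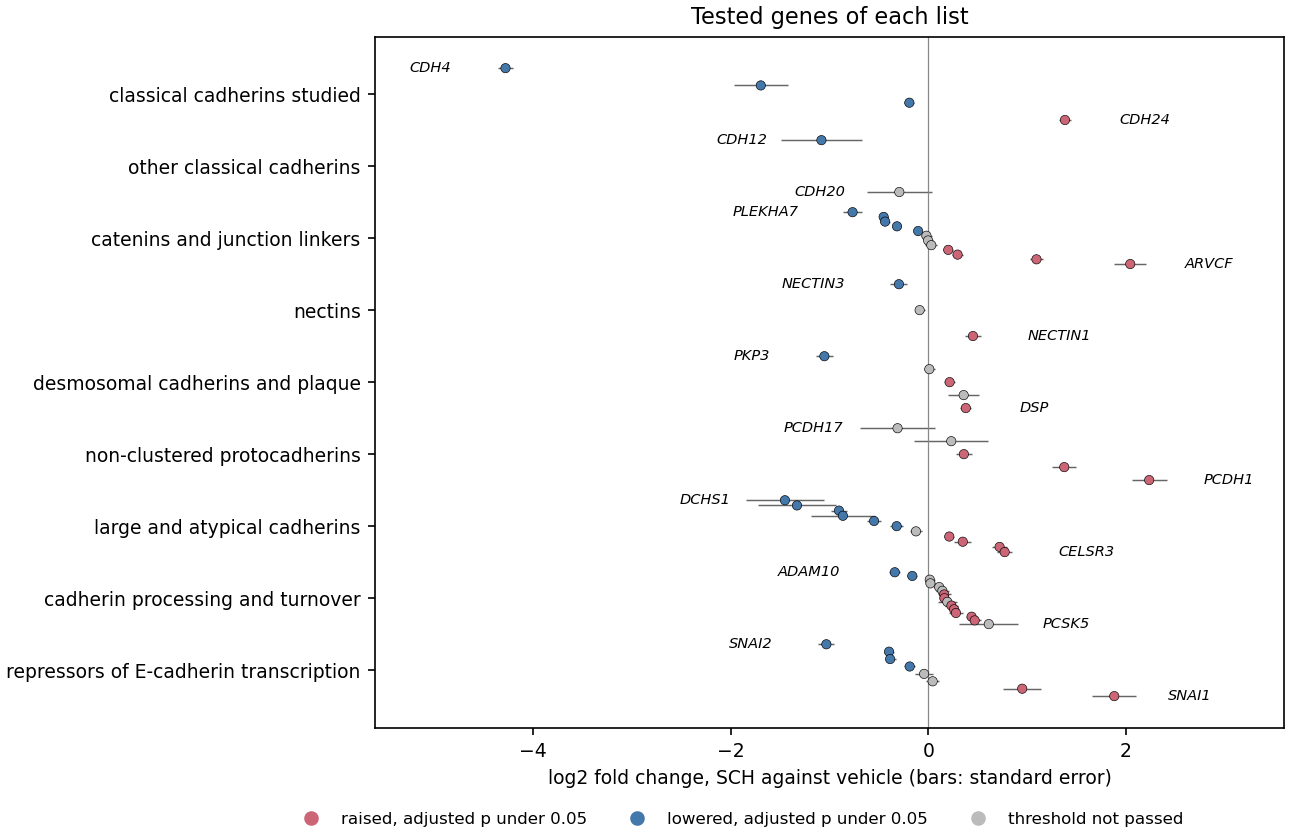
Log2 fold change of SCH against vehicle for each tested gene of the member list and of the other lists described, with bars for the standard error and colours for genes past an adjusted p of 0.05. The lowest and the highest gene of each list are labelled; CDH4 at -4.28 lies apart from every other gene plotted, and PCDH1 at 2.24 and ARVCF at 2.05 are the highest.

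Of 13 known transcriptional repressors of E-cadherin and their partners 8 were tested, 2 raised and 4 lowered, beside 29.3% raised and 29.4% lowered of all tested genes, and the median of their log2 fold changes was -0.11. SNAI1 (Snail), a zinc finger repressor, had 24, 16 and 22 counts in the vehicle samples and 72, 80 and 77 in the SCH samples, and rose by 1.88 (SE 0.22, adjusted p = 1.18e-07). SNAI2 (Slug), its close relative, was the more abundant per length, at 9.88, 9.81 and 11.1 FPKM in vehicle and 4.94, 5.42 and 4.77 FPKM after SCH, and fell by 1.03 (SE 0.081, adjusted p = 1.70e-10). After SCH SNAI1 stood at 2.39 ± 0.0750 FPKM (SD, n = 3), still under SNAI2. ZEB1 had a log2 fold change of 0.045 (SE 0.069, adjusted p = 0.599) and ZEB2 of -0.042 (SE 0.091, adjusted p = 0.717), the latter 0.061 with library size alone and 0.018 without vehicle sample 2. TCF3, the E2A factor, fell by 0.40 (SE 0.049), and CTBP2, a corepressor, by 0.39 (SE 0.055), with 34.7% of its exonic bases shared with other genes. CDH1, with the 6 counts or fewer given above, stayed too low for a change to be seen beside them.

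SNAI1, SNAI2, ZEB1 and ZEB2 are known to recognise the E-box CAGGTG, which reads CACCTG on the other strand. RefSeq promoter windows (GRCh38.p14) were found for 2 of the 9 members, CDH4 and CDH2, with 2 windows each. In the 250 bases before the start, 6143 of all 35116 windows (17.5%) held the motif on either strand, as did 1 window of CDH4 and 0 of CDH2. The CDH4 window, which lies inside the second intron of CDH4-203, is shown with its match in capitals, 16 bases before the start (chr20:61499171-61499420, plus strand). A match is a string of letters and was not tested as a binding site.
CDH4: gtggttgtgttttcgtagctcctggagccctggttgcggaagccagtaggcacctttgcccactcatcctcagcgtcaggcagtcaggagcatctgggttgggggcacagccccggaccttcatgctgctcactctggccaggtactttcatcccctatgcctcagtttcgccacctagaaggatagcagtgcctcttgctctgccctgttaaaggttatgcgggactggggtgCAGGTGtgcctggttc

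Of the 16 genes for the cleavage and turnover of cadherins 15 were tested, 7 raised and 2 lowered. Together 60.0% passed the threshold, near the 58.7% of all tested genes, of which 29.3% were raised and 29.4% lowered. The median of the list's log2 fold changes was 0.16. FURIN, a protease that removes the propeptide of cadherins, rose by 0.47 (SE 0.061, adjusted p = 5.27e-07). MMP14, a membrane-bound metalloprotease, rose by 0.26 (SE 0.049), from 109.8, 113.3 and 105.4 FPKM to 139.3, 132.6 and 123.9 FPKM. ADAM10, the sheddase of E- and N-cadherin, fell by 0.34 (SE 0.057, adjusted p = 1.86e-05). With library size alone 12 of these genes were raised and 1 lowered, and 1 was lowered without vehicle sample 2 or SCH sample 2.

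The receptor phosphatases PTPRM, PTPRF and PTPRK, which associate with cadherins and catenins, were lower after SCH. They were picked by their small p from a longer list, whose other genes are not reported here. PTPRM (840.1 kb) had 11.6, 11.3 and 11.3 FPKM in the vehicle samples and 3.78, 3.70 and 3.66 FPKM in the SCH samples, and fell by 1.63 on the log2 scale (SE 0.056, adjusted p = 1.10e-16). PTPRF (LAR) fell by 0.88 (SE 0.049, adjusted p = 5.36e-13), from 67.2 ± 1.82 to 36.7 ± 2.23 FPKM (SD, n = 3), and PTPRK (551.9 kb) by 0.38 (SE 0.060). Of all tested genes 29.4% were lowered, and of those over 400 kb 74.9%, with a median of -0.90. PTPRM differed from that median by -0.72 and PTPRK by 0.53.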

How the data were processed

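From poly-T purified mRNA the authors deposited a matrix of raw read counts for every gene and, for each sample, FPKM values. The submitters' processing notes name CASAVA 1.8, HISAT2 2.0.5, featureCounts 1.5.0-p3, DESeq2 1.20.0 and GRCh38, with no role or order. Within a sample the FPKM values were proportional to the count divided by gene length. All sample columns were used. Between replicates the chi-square of the counts was 2.12 to 5.75 for each degree of freedom, so none were copies.

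edgeR 4.0.16 in R 4.3.3 gave TMM factors (0.961 to 1.04), a filter (filterByExpr) that kept 14736 genes, and a quasi-likelihood test of SCH against vehicle with no covariate. P-values were adjusted over all tested genes by the Benjamini-Hochberg method, with 0.05 as the threshold. Every adjusted p is from this test unless another is named. Each standard error was derived from the F statistic and the size of the log2 fold change. CPM was scaled by the TMM factors. The 4 members that passed the filter entered this fit with the other tested genes. Since the members were chosen on this comparison, their p-values are not printed and their calls are a description. No test was made for lists or correlations. Members and lists were chosen with earlier results of these data known.

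The genes named were the 9 members, at most 4 tested genes with the smallest p from each list, the catenins CTNNA1, CTNNB1, CTNND1 and JUP, SNAI1, SNAI2, ZEB1 and ZEB2, and the 5 genes most like CDH4; neighbours, markers and long cadherins were added after their values were seen. Gene structure and overlaps came from GENCODE 29, whose coordinates all 9 members shared. Protein sequences were not used here, and some genes and a list that this rule covers are not reported here. Alternatives were RLE factors, library size alone, upper quartile, no filter, a minimum of 10 counts per sample, the replicate block, DESeq2 1.42.0, limma 3.58.1 with FPKM as log2(FPKM + 1) and log2(FPKM + 0.1), thresholds of 0.01 and of 1 on the log2 scale, and each sample left out. The script was tested on simulated data. Python 3.11.15 with matplotlib 3.10.9 drew the figures.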

Additional observations from a re-analysis of the deposited data

How the results depend on the processing

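Of the 40 genes named from the members and lists, 31 had the same sign and the same call under every alternative that gave them a value, apart from the stricter thresholds, which were applied only to the count of changed genes. PCDH17 and CDH12 gave no value with at least 10 counts. CDH4 ranged from -4.37 to -3.64 on the log2 scale, CDH24 from 1.31 to 1.49, CDH2 from -1.92 to -0.39 (the smallest on log2(FPKM + 1), where the pseudocount exceeds its level) and CDH11 from -0.22 to -0.088. The sum of the members after SCH was 0.680 of vehicle with TMM-scaled CPM per kb. Changed genes numbered 1292 with a limit of 1 on the log2 scale, and 7919 by DESeq2. Library size alone gave 5519 raised and 3295 lowered genes, 0 lowered nectins, 3 raised desmosomal genes, 12 raised and 1 lowered processing genes, a median of -0.80 over 400 kb, and the signs of CTNNA1 (0.00061), CTNNB1 (0.10), NECTIN2 (0.016) and ZEB2 (0.061) turned. Upper quartile gave 2 lowered nectins. Other classical cadherins had 1 raised without a filter, and 0 lowered with at least 10 counts, DESeq2 or limma on either FPKM scale. The median of genes over 400 kb was -0.76 with at least 10 counts, -0.26 and -0.60 on those scales (pseudocounts of 1 and 0.1) and -0.36 with the limit at 200 kb. CTNNB1 also turned to 0.0028 with RLE factors and with DESeq2, 0.016 without a filter, and 0.0050 and 0.0052 with a pseudocount of 1 and of 0.1 on FPKM. The cause of these turns was not tested.

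When 1 sample was left out, changed genes numbered 7809 to 8489, lowered other classical cadherins 0 to 1, lowered nectins 1 to 2 and lowered processing genes 1 to 2. CTNNB1 then ranged from -0.012 to 0.020, CDH20 from -0.65 to 0.037 and ZEB2 from -0.086 to 0.018. The same-numbered samples correlated at 0.046, -0.022 and 0.022 in their deviations from the group means, and not every sample correlated best with its own number. With 3 samples in each group these values cannot show whether same-numbered samples were handled together. With the replicate block 8705 genes changed, and among the named genes CTNNA1 lost its call (adjusted p = 0.0784). Depth limits CDH1, CDH3, CDH5, CDH6 and CDH13, where changes could not be seen.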
